A study of Mus musculus with 5 samples.

Results

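The genes described here are 10 that handle fatty acids and related lipids in endothelial cells: Cd36, Fabp4, Fabp5, Gpihbp1, Lpl, Meox2, Tcf15, Aqp7, Rbp7 and Pparg. They were chosen by gene symbol, with earlier results of these data known. All 10 were found among the 31053 genes of the deposited count tables, and all 10 had unique molecular identifiers (UMIs, tags that each mark 1 captured RNA molecule) in all 5 libraries. They were read in endothelial barcodes, defined as the 12826 of 35838 kept cell barcodes with at least 2 UMIs of the vascular endothelial genes Cdh5 and Pecam1 together, and in barcodes gated for other cell lineages.

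Mouse hearts were digested with enzymes, pooled and sorted for live nucleated cells, and single cells were made into 10x Genomics libraries that read transcripts from their 5′ ends. Controls were Ctla4+/+Pdcd1-/- (4 mice, libraries 1 and 2) and disease mice were Ctla4+/-Pdcd1-/- (10 mice, libraries 3, 4 and 5), a genotype that serves as a model of the heart inflammation caused by immune checkpoint inhibitors. Both groups lacked Pdcd1, the gene of the checkpoint receptor PD-1, so the groups differed by 1 copy of Ctla4, a second checkpoint receptor. The genotype field of single samples also reads Pdcd2-/- or Pdcd3-/-, and their sort field runs from DRAQ5 to DRAQ9, whereas the design text gives Pdcd1-/- and DRAQ5+DAPI- for all, which was followed here. Hearts were pooled and the ages are not given in the sources used here, so all p-values below measure only the spread between these libraries.

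The deposited tables held 47319 barcodes with at least 500 UMIs each, and 1208 barcode sequences occurred in 2 or more libraries. Endothelial barcodes numbered 2843 and 2442 in control libraries 1 and 2, and 2429, 2050 and 3062 in disease libraries 3, 4 and 5, with 6791930 to 11873116 UMIs in each library. They made up 22.4% (disease 4) to 45.7% (control 2) of the kept barcodes. All 12 genes of an endothelial marker list were present in them in every library, at a summed level of 6950 to 7561 UMIs per 1000000 UMIs (CPM). Of 7 adipocyte markers, 5 (Adipoq, Plin1, Cidec, Cfd and Lep) were at 0 in the endothelial barcodes of all libraries. The cardiomyocyte list summed to 1099 and 1056 CPM in controls and to 1068, 680 and 1012 CPM in disease, and the macrophage list to 2138 and 350 CPM in controls and 1250, 3414 and 885 CPM in disease. The summed cardiomyocyte and macrophage levels were thus at their lowest and highest in disease 4, which also held the most T cell barcodes, 2218 against 80 to 557 in the other libraries.

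The heart draws most of its fuel from fatty acids, which must cross the endothelium of its capillaries. Lipoprotein lipase (LPL) releases fatty acids from circulating triglyceride particles, and GPIHBP1, a membrane-anchored protein of capillary endothelium, picks LPL up from the tissue space and carries it to the vessel lumen. Fatty acids then enter the cell with the help of the membrane protein CD36 and are carried by the binding proteins FABP4 and FABP5, while the transcription factors MEOX2, TCF15 and PPARγ are known regulators of such genes in heart endothelium or fat.

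RefSeq promoter windows (GRCm38.p6) were at hand for 5 of the 10 members: Cd36, Meox2, Aqp7, Rbp7 and Pparg, 8 windows in all. The 250 bases upstream of 1 RefSeq start site of 3 of them are printed here because these 3 genes were strongly endothelial in the counts below. Capitals mark AGGTCA or its reverse complement TGACCT, the half-site to which PPARγ and many other nuclear receptors bind; sequences run 5′ to 3′ on the gene's strand, the minus strand in all 3. The Cd36 window and the printed Aqp7 window lie at starts inside the annotated span of the gene.
Cd36, chr5:17835897-17836146: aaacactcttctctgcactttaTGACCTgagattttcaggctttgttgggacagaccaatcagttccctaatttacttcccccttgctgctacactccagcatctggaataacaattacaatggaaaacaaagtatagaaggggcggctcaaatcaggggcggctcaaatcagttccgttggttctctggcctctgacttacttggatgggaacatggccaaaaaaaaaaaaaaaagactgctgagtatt
Aqp7, chr4:41047963-41048212: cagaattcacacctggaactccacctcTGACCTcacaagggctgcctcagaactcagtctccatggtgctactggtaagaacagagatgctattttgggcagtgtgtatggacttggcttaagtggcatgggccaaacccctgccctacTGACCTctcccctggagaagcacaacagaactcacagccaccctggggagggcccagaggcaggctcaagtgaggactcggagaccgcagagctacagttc
Rbp7, chr4:149454969-149455218: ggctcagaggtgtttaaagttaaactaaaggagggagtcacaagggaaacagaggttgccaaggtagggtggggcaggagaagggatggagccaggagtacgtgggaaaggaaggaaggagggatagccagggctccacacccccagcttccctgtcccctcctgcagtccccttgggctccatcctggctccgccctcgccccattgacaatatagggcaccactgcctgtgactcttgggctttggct
The Cd36 window held 1 half-site and the printed Aqp7 window 2, whereas the Rbp7 window held none. A second Aqp7 window, not printed, overlaps the printed one and holds the first of its 2 sites. The 3 Pparg windows held 2 half-sites and the Meox2 window none. Searched on both strands, AGGTCA occurred in 16.3% of 32851 promoter windows of 250 bases before to 50 bases after a start site. The direct repeat AGGTCANAGGTCA, the textbook element of PPARγ and its partner RXR, occurred in 0.0396% of windows and in 0 of the 8 member windows. These letters describe the windows only and give no measure of binding.

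In endothelial barcodes the 10 members together made up 2.72 and 2.799% of all UMIs in controls and 3.31, 3.51 and 3.35% in disease, so all 3 disease libraries lay above both controls. Most of this sum was 1 gene, Fabp4, with 68.8 to 72.0% of the member UMIs; the other 9 members made up 0.779 and 0.874% of all UMIs in controls and 0.927, 1.05 and 0.966% in disease. A median of 6 members was detected per barcode in 4 libraries and 7 in control 2. In T cell barcodes, which should not express most of these genes, the same sum was 0.0193 to 0.0431% of UMIs. Levels below are CPM of the gate named. A 5′ library counts molecules at their start and was not scaled by gene length, so levels are compared between libraries and cell types and not between genes.

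The 2 genes of triglyceride breakdown at the vessel wall were both higher in every disease library than in either control. Gpihbp1 (chromosome 15, 75596628 to 75599481, GRCm38) was at 1785 and 1956 CPM in controls and at 2156, 2472 and 2338 CPM in disease. The log2 ratio of disease to control was 0.25 (SE 0.11), which did not pass the test (edgeR quasi-likelihood, Benjamini-Hochberg adjusted p = 0.269), and 0.12 with the trend of fold change on GC content removed. Lpl (chromosome 8, 68880491 to 68907448), the lipase itself, was at 471 and 676 CPM in controls and at 854, 870 and 891 CPM in disease. The disease libraries lay close together and the controls apart. The log2 fold change of Lpl was 0.54 (SE 0.17, adjusted p = 0.143). It was 0.30 without control 1 and 0.81 without control 2, and neither passed.

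The uptake gene overlapped between the groups. Cd36 (chromosome 5, 17781690 to 17888801), the membrane fatty acid transporter, was at 3434 and 3495 CPM in controls and at 3483, 4534 and 3715 CPM in disease. Disease 4 was the highest library and disease 3 lay between the controls. The log2 fold change was 0.11 (SE 0.14, adjusted p = 0.690), and it was -0.0035 without disease 4.

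Both cytosolic fatty acid carriers were higher in all disease libraries. Fabp4 (chromosome 3, 10204088 to 10208576) was at 19409 and 19247 CPM in controls and at 23876, 24584 and 23793 CPM in disease. Fabp5 (chromosome 3, 10012548 to 10016607), a member of the same gene cluster, was at 980 and 1069 CPM in controls and at 1423, 1192 and 1297 CPM in disease. The 2 groups did not overlap for either gene. The log2 fold changes were 0.25 for Fabp4 (SE 0.09, adjusted p = 0.207) and 0.28 for Fabp5 (SE 0.12, adjusted p = 0.256), and neither passed. With the GC trend removed they were 0.11 and 0.17.

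Of the 2 members with other cargo, Rbp7 rose and Aqp7 did not pass. Rbp7 (chromosome 4, 149449687 to 149454978), a cytosolic retinoid carrier of the same protein family as the FABPs, was at 597 and 586 CPM in controls and at 803, 869 and 839 CPM in disease. Its log2 fold change was 0.43 (SE 0.09, adjusted p = 0.0457), a 1.35-fold difference that all 3 disease libraries showed against both controls. This call lay close to the threshold and was lost under 14 of 19 alternative settings, with adjusted p from 9.1e-06 to 0.268 and a log2 fold change from 0.30 to 0.54. With the GC trend removed it was 0.30 (adjusted p = 0.119). Aqp7 (chromosome 4, 41033074 to 41048139), a channel for glycerol and water, was at 267 and 317 CPM in controls and at 226, 282 and 291 CPM in disease, which overlapped (log2 fold change -0.20, SE 0.15, adjusted p = 0.477). This value was -0.32 without control 1, -0.081 without control 2, -0.11 without disease 3 and -0.32 with the GC trend removed, and ran up to -0.054 with thinned cells.

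The 3 transcription factors did not pass. Meox2 (chromosome 12, 37108540 to 37179534), a homeobox factor that pairs with TCF15, was at 147 and 170.0 CPM in controls and at 235, 170.3 and 193 CPM in disease. Disease 4 and control 2 were nearly equal. Its log2 fold change was 0.27 (SE 0.17, adjusted p = 0.420), and it was 0.11 without disease 3, 0.17 without control 1 and 0.15 with the GC trend removed. Pparg (chromosome 6, 115360951 to 115490399), the nuclear receptor, was at 67.1 and 102 CPM in controls and at 65.3, 82.9 and 68.1 CPM in disease, with overlapping groups (log2 fold change -0.29, SE 0.21, adjusted p = 0.471; 0.027 without control 2, -0.56 without control 1 and -0.17 with the GC trend removed).

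Tcf15 (chromosome 2, 152143561 to 152149097), a basic helix-loop-helix factor, had by far the widest spread. It was at 44.6 CPM in control 1 and at 374 CPM in control 2, against 20.1, 23.1 and 27.1 CPM in disease. Control 2 stood alone, at 8.39 times the next highest library. The log2 fold change was -3.22 (SE 0.84, adjusted p = 0.0869). It was -1.004 without control 2 (adjusted p = 0.0953) and -4.06 without control 1 (adjusted p = 0.0101), so 1 library set the size of this difference. Control 2 was also above control 1 for Tcf15 by 7.29 times in the capillary gate, 11.2 times in the arterial gate and 6.41 times in fibroblast barcodes, where Tcf15 was at 2.47 CPM or less. Of the 6332 genes with at least 20 CPM in control 2, 5 were at least 8 times above every other library there, and Tcf15 was the fifth of them after Tmem238, Bri3, Tmem160 and Glrx5. By the same measure disease 4 had 4 such genes and disease 5 had 1. The first 300 bases of the Tcf15 transcript held 78.3% G and C, more than 97.3% of the tested genes, and those of the other 4 genes held 66.0 to 79.7%. Pparg followed among the members at 77.3%, and the other 8 members had 42.7 to 56.0%. The part of GC content or of the library in the Tcf15 values was not tested beyond these figures and the fit with the GC trend removed, which gave -3.09 (adjusted p = 0.0878).

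**Figure D1:**
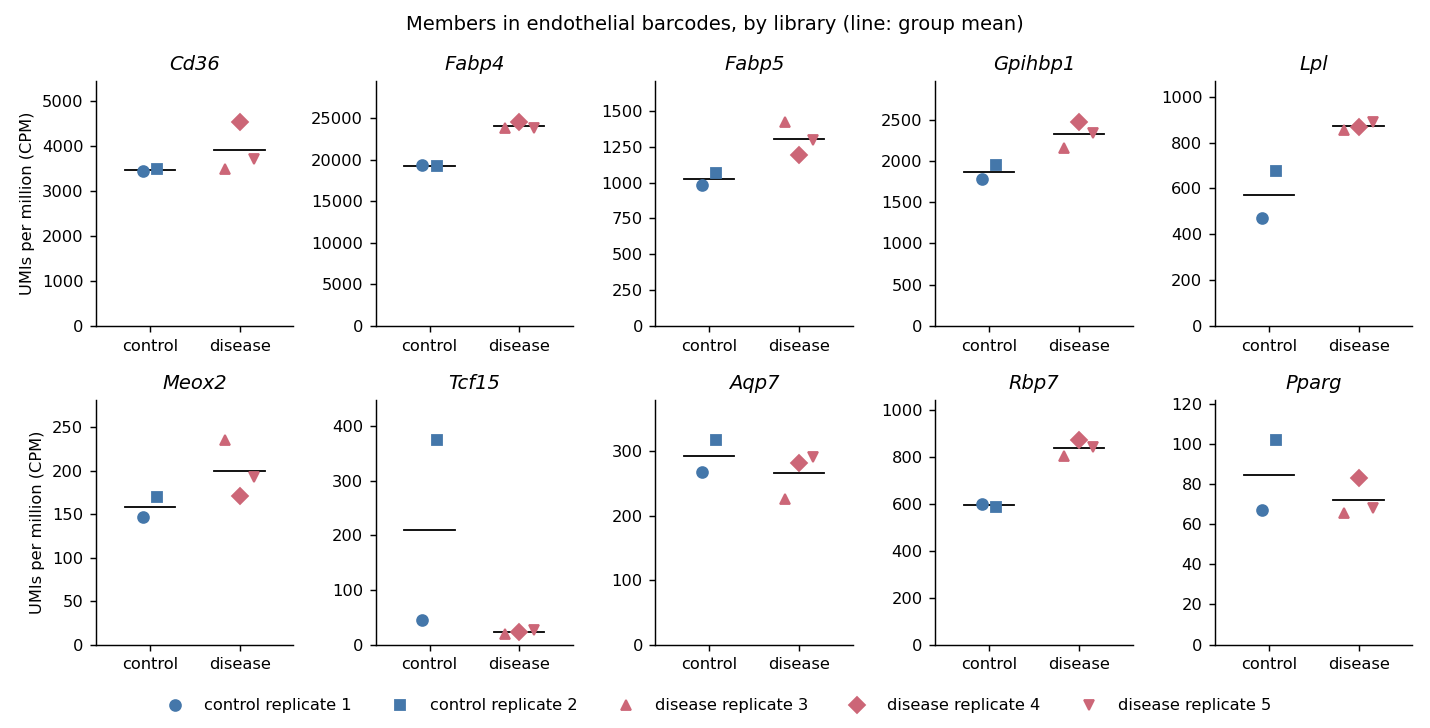
Level of each member in endothelial barcodes (vertical axis, CPM, from 0) in 2 control libraries (blue) and 3 disease libraries (red), with a line at each group mean. Gpihbp1, Lpl, Fabp4, Fabp5, Meox2 and Rbp7 lie higher in all disease libraries than in both controls, and control 2 stands alone for Tcf15 at 374 CPM.

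In all, 1 of the 10 members passed the test, against 10.4% of the 13190 genes tested (0.174% higher, 10.3% lower). The number of calls in either direction was thus near the background. By direction, 1 member was called higher and 0 lower, and 1 call is too few to set against these shares. Without overlap between the groups, 6 members were higher (Gpihbp1, Lpl, Fabp4, Fabp5, Meox2 and Rbp7) and 1 lower (Tcf15), against 25.3% higher and 23.0% lower over all genes. The median log2 fold change was 0.25 over the members, with 7 of 10 above 0, and 0.01 over all genes tested, with 6757 of 13190 above 0. The first 300 transcript bases of the 6 higher members held 48.7 to 56.0% G and C, below the median of 60.3% over tested genes. With the GC trend removed, the fold changes fell to 0.12 for Gpihbp1, 0.11 for Fabp4, 0.17 for Fabp5 and 0.30 for Rbp7. The part of GC content in the members' shared direction was not tested further. DESeq2, run as an alternative, called 4 members: Rbp7, Fabp4 (adjusted p = 0.0057) and Lpl (adjusted p = 0.0289) higher and Tcf15 lower (adjusted p = 5e-04), against 13.5% of all genes by that tool.

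The share of endothelial barcodes with a UMI gave a second view, after each barcode was thinned to 1000 UMIs and shallower ones (43 to 151 per library) were left out. Shares carry counting error only in their 95% Wilson intervals. For Lpl the share was 34.6% (32.9 to 36.4) and 45.8% (43.8 to 47.8) in controls and 50.9, 51.9 and 52.7% in disease, where T cell barcodes gave 1.25 to 3.01%. For Rbp7 it was 32.8 and 32.2% in controls and 38.9, 42.2 and 37.6% in disease, with 0.376 to 2.5% in T cell barcodes. The control and disease means were 53.2 and 59.1% for Fabp5 and 73.0 and 78.3% for Gpihbp1, without overlap. At 2000 UMIs per barcode the Gpihbp1 groups overlapped (means of 85.8 and 86.7%). Tcf15 went the other way, with 4.64 and 31.3% in controls and 2.11, 3.11 and 2.998% in disease. For these 5 members an exact permutation test (two-sided) of the 5 library values gave p = 0.1, the smallest this design allows, and 0.2 after adjustment over the 10 members. The 4 higher and 1 lower of 10 members without overlap compare with 19.0% higher and 22.1% lower over the 13190 genes, measured in the same way. Without thinning, the groups overlapped for Lpl (66.4 and 72.4% against 76.9, 71.5 and 76.1%), Fabp5 and Gpihbp1. Rbp7 stayed higher without overlap, and Aqp7 (a difference in means of -5.90 percentage points) and Pparg (-5.17 points) were then lower without overlap. The median depth per endothelial barcode was 3369 and 3055 UMIs in controls against 3073, 2531 and 2838.5 in disease.

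The members were then compared between cell types within each library, with the library as a block. All 10 were higher in endothelial barcodes than in macrophage barcodes (at least 2 UMIs of Csf1r and Adgre1, background 40.5% of genes higher), T cell barcodes (Cd3d and Cd3e, 41.3%) and B cell barcodes (Cd79a and Ms4a1, 40.4%). Against fibroblast barcodes (Pdgfra and Tcf21, 40.4%), 9 of 10 were higher. Gpihbp1 had the highest log2 difference against fibroblasts, 7.52 (SE 0.11), and against macrophages, 7.55 (SE 0.21). The exception was Lpl, at 775 and 762 CPM in control fibroblasts and 589, 741 and 597 CPM in disease fibroblasts, a log2 difference of 0.05 (SE 0.18, edgeR adjusted p = 0.829) between the cell types. As a median over libraries, fibroblasts held Lpl at 85.3% of the endothelial level, but this share was 164 and 113% in controls and 69.0, 85.3 and 67.0% in disease. They held Meox2 at 11.3%, Fabp5 at 5.15%, and the other 7 members at 0.561 to 1.56%.

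Macrophages held Lpl at 28.2% of the endothelial level, Pparg at 18.3%, Cd36 at 8.06% and Fabp5 at 5.52%, and the other 6 members at 0.423 to 0.669%. In T cells the same medians were 1.92% for Lpl, 6.41% for Pparg, 1.01% for Cd36 and 7.38% for Fabp5. The B cell median for Fabp5 was 1.40%. By library, T cells held Fabp5 at 7.93 and 2.16% in controls and at 4.19, 7.38 and 7.53% in disease. Macrophages held it at 3.92 and 2.36% in controls and at 7.18, 5.52 and 8.65% in disease, so neither was higher in every library. Cd36, a scavenger receptor in macrophages, was at 219 to 314 CPM in them against 22.7 to 41.0 CPM in fibroblasts and 28.8 to 51.6 CPM in T cells. Gpihbp1 was at 5.77 to 15.4 CPM in fibroblasts, macrophages and T cells alike, and Fabp4 at 86.7 to 231 CPM, so both were low in all 3 cell types. Small gates of 13 to 57 barcodes per library gave description only. Pericyte barcodes held Fabp5 at 64.1% of the endothelial level, Schwann barcodes at 44.4%, smooth muscle barcodes at 18.9% and neutrophil barcodes at 17.5%. The pericyte gate also held Cd36 at 14.4%, Fabp4 at 9.31% and Gpihbp1 at 1.48%. The part of endothelial RNA in these gates was not tested.

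**Figure D2:**
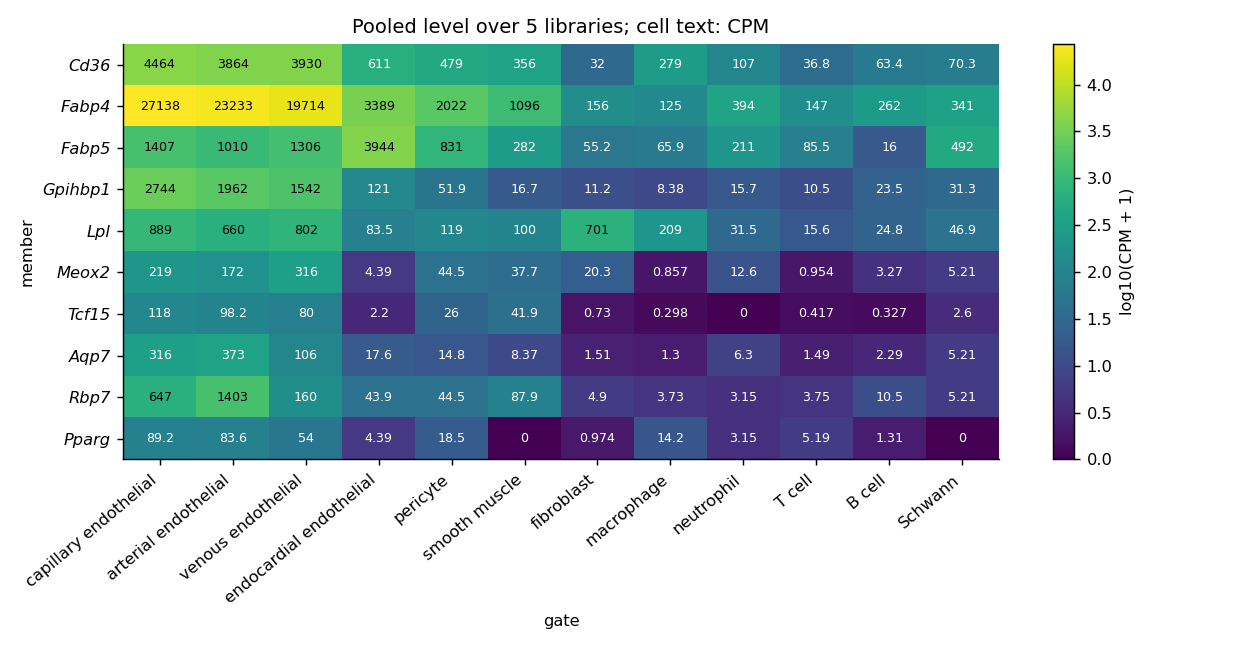
Level of each member (rows) in 4 endothelial subtype gates and 8 other lineage gates (columns), pooled over the 5 libraries; colour is log10(CPM + 1) and the number in each cell is the CPM. Lpl stands out in fibroblasts at 701 CPM and in macrophages at 209 CPM, Fabp5 in the endocardial gate at 3944 CPM, and Rbp7 in the arterial gate at 1403 CPM.

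Rbp7 and several other members differed between vessel types. Endothelial barcodes were split by subtype markers: capillary (Rgcc, Car4, Kdr), arterial (Gja5, Sema3g, Stmn2, Fbln5), venous (Nr2f2, Ackr1, Selp) and endocardial (Npr3, Cytl1, Hapln1), the last being the lining of the heart chambers. Arterial, venous and endocardial barcodes could also meet the capillary gate, a rule chosen after the gates had been counted. Most of the arterial barcodes did: of 332 to 570 per library, 24 to 64 met the arterial gate alone, so the arterial values below come mainly from barcodes that carried capillary markers too. Of the 18 to 33 venous barcodes 4 to 7 met the venous gate alone. In the arterial gate Rbp7 was at 1200.2 and 1052 CPM in controls and 1422, 1721 and 1727 CPM in disease. In the capillary gate it was at 543 and 486 CPM in controls and 696, 930 and 703 CPM in disease, and in the venous gate at 56.0 to 266 CPM. Every arterial value was higher than every capillary value, and every capillary value higher than every venous one. The log2 difference of Rbp7 was 1.11 (SE 0.04) between arterial and capillary and -2.31 (SE 0.18) between venous and capillary barcodes, and both also passed without the block.

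With the library as a block, 9 of 10 members differed between arterial and capillary barcodes, against 19.7% of genes. Rbp7 and Aqp7 (0.27, SE 0.04) were higher in the arterial gate. Fabp5 (-0.49), Gpihbp1 (-0.47), Lpl (-0.43), Meox2 (-0.35), Tcf15 (-0.31), Fabp4 (-0.22) and Cd36 (-0.18) were lower, and Pparg did not pass. Without the block 1 member, Rbp7, was called, against 2.95% of genes, so the other 8 calls rest on comparing gates within a library. In the venous gate, of 18 to 33 barcodes per library, 8 members were lower than in the capillary gate, against 6.5% of genes, and 4 passed without the block (Rbp7, Aqp7, Gpihbp1 and Fabp4), against 2.59%. Aqp7 differed by -1.80 and Gpihbp1, the capillary lipase carrier, by -1.07.

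The endocardial gate, of 10 to 24 barcodes per library, had the least of most members and the most Fabp5. Fabp5 was at 5148 and 2888 CPM in controls and at 3795, 3408 and 3975 CPM in disease there, against 1141 to 1675 CPM in the capillary gate. Each endocardial value exceeded every capillary value, and the log2 difference was 1.33 (SE 0.16). The other 9 members were lower, by -3.03 for Cd36 to -5.98 for Tcf15, so 10 of 10 differed, against 19.0% of genes, and 10 of 10 without the block, against 15.0%. Gpihbp1 was at 225 and 27.2 CPM in controls and at 167, 71.5 and 67.7 CPM in disease in this gate.

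**Figure D3:**
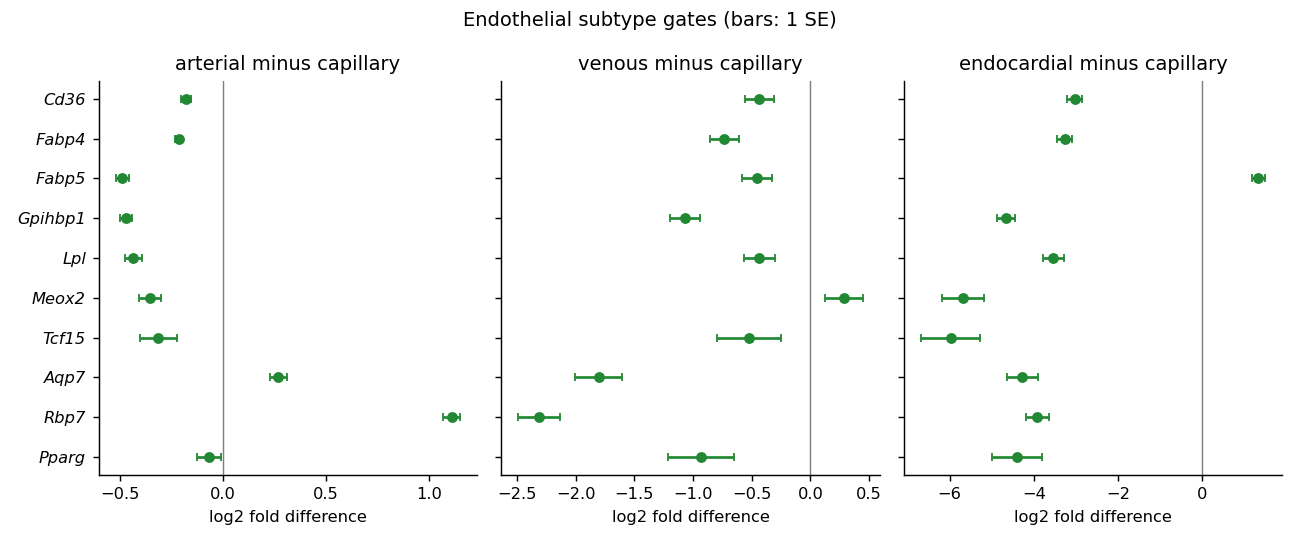
Log2 difference of each member between an endothelial subtype gate and the capillary gate (horizontal axes, which differ in range), from fits with the library as a block; bars are 1 standard error (SE) to each side. Rbp7 is higher in arterial (1.11) and lower in venous (-2.31) barcodes, and Fabp5 alone lies above 0 in the endocardial panel (1.33).

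The makeup of the endothelial barcodes stood as follows. The capillary gate held 66.6 and 69.6% of them in controls and 62.9, 62.2 and 65.4% in disease (exact permutation test, p = 0.2, adjusted p = 0.5), and the arterial gate 18.1 and 17.9% against 21.6, 16.2 and 18.6%. Deeper barcodes meet a marker gate more easily, so these shares depend on depth. After thinning to 1000 UMIs the capillary gate held 65.9 and 71.9% in controls and 60.3, 53.5 and 59.3% in disease. Barcodes that met the arterial gate and no other subtype or lineage gate were 0.844 and 1.15% in controls and 1.81, 2.44 and 2.09% in disease (exact permutation test, p = 0.1, adjusted p = 0.533). By the same rule after thinning to 1000 UMIs they were 2.75 and 3.11% against 4.94, 3.84 and 4.40%. In both of these the disease libraries were higher without overlap. This is a smaller set, of 24 to 64 barcodes per library before thinning, than the arterial gate in which the members were measured, and no member level is given for it. In capillary barcodes alone the log2 fold change between the groups was 0.54 for Rbp7 (adjusted p = 0.114) and 0.58 for Lpl (adjusted p = 0.0898).

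The same comparison of groups was made in the other lineages. In macrophages 1 of 7 members tested was called, against 0.183% of genes higher and 7.14% lower. It was Fabp5, at 38.4 and 25.3 CPM in controls and at 102, 65.8 and 112 CPM in disease. All disease libraries lay above both controls, and the difference was 1.62 on the log2 scale (SE 0.30, adjusted p = 0.0235 in edgeR), a 3.07-fold difference. The call was lost without control 1 (2.05, adjusted p = 0.0591), without control 2 (1.33, adjusted p = 0.151) and without disease 5 (1.47, adjusted p = 0.107). Beside it, the macrophage marker list summed to 30220 and 28777 CPM in controls and to 32504, 35362 and 32062 CPM in disease, the endothelial list to 77.6 and 84.1 against 85.1, 87.4 and 92.2 CPM, and Fabp4 was at 115 and 104 against 191, 86.7 and 194 CPM. Their part in the Fabp5 difference was not tested. Lpl (0.04, SE 0.30) and Cd36 (0.36, SE 0.21) did not pass in macrophages.

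In fibroblasts 0 of 9 members tested were called by edgeR, against 13.1% of genes, and 1 had an unadjusted p below 0.05; DESeq2 also called 0. That 1 was Rbp7, at 3.63 and 2.99 CPM in controls and 8.20, 4.40 and 6.01 CPM in disease, low levels at which the groups did not overlap (log2 fold change 0.83, SE 0.32, unadjusted p = 0.0420, adjusted p = 0.161). Lpl had a log2 fold change of -0.30 there (SE 0.14, adjusted p = 0.218), with all 3 disease libraries below both controls and disease 4 the nearest to them; without disease 4 it was -0.43 (adjusted p = 0.0381). In T cells 0 of 7 were called by edgeR, against 4.75%, 0 had an unadjusted p below 0.05, and DESeq2 called 0. Over all kept cells 0 of 10 were called by edgeR, against 6.51%, 1 (Tcf15) had an unadjusted p below 0.05, and DESeq2 called 1, Tcf15. In that sum alone, fewer endothelial cells and less RNA per cell cannot be told apart. Beside it, endothelial barcodes were 33.1 and 45.7% of kept barcodes in controls and 43.8, 22.4 and 42.5% in disease. The log2 fold change of Tcf15 was -3.51 over all kept cells and -3.22 in endothelial barcodes.

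**Figure D4:**
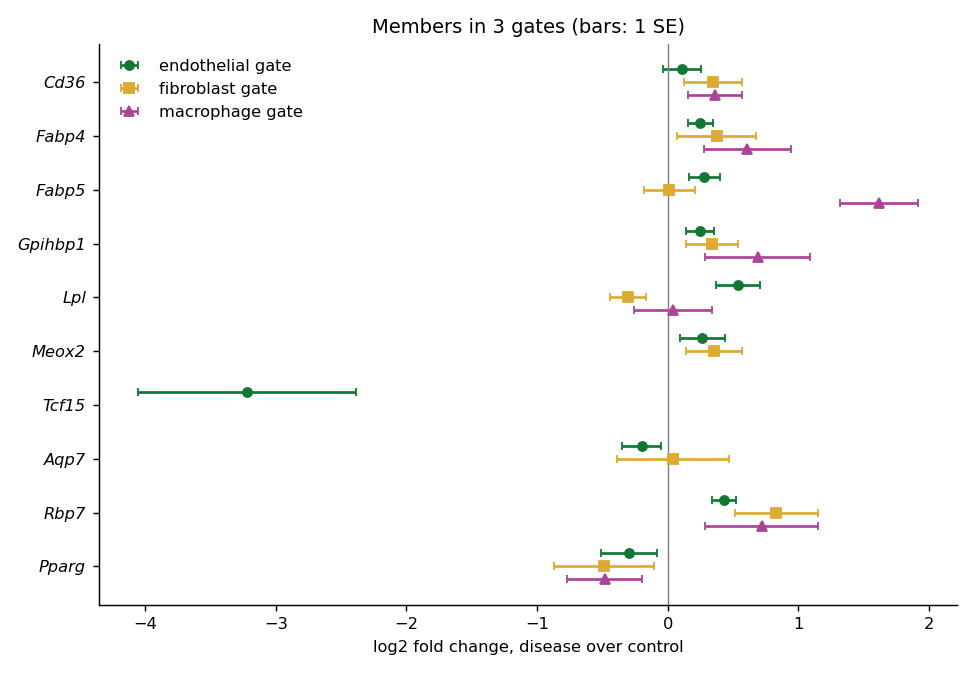
Log2 fold change of each member, disease over control (horizontal axis), in endothelial, fibroblast and macrophage barcodes; bars are 1 SE to each side and a missing point means the gene was too low to be tested. Fabp5 in macrophages (1.62) and Tcf15 in endothelial barcodes (-3.22) lie farthest from 0, and Lpl lies on opposite sides of 0 in endothelial (0.54) and fibroblast (-0.30) barcodes.

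Whether a member changed by a different amount in 2 cell types was tested with an interaction term. Between endothelial and fibroblast barcodes the Lpl changes differed by 0.99 on the log2 scale (SE 0.17, unadjusted p = 2e-04), which did not pass after adjustment (adjusted p = 0.118); the median gene differed by 0.12 in this fit. It was 0.45 without control 1 and 0.85 with DESeq2, where the median gene differed by -0.02. No member was called in this fit by edgeR, where 0.0634% of genes were and 3 members (Lpl, Tcf15 and Fabp5) had an unadjusted p below 0.05, nor against macrophages, where 0.0% of genes were and 1 member (Fabp5) had an unadjusted p below 0.05. DESeq2 called 0 members in both. Against macrophages the Fabp5 changes differed by -1.22 (SE 0.27, unadjusted p = 0.0019, adjusted p = 0.851).

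**Figure D5:**
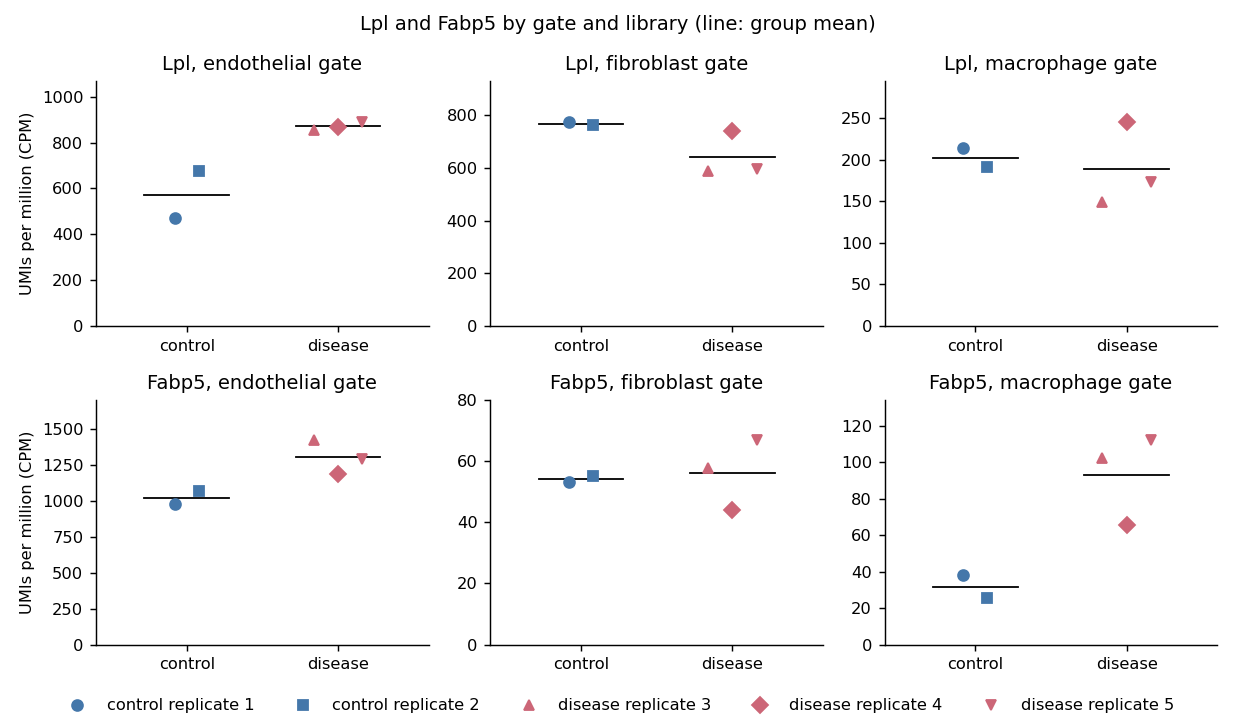
Lpl (top) and Fabp5 (bottom) by library in endothelial, fibroblast and macrophage barcodes (vertical axes in CPM, from 0, with a separate scale in each panel); lines are group means. Fabp5 in macrophages runs from 25.3 to 38.4 CPM in controls and from 65.8 to 112 CPM in disease, and Lpl in fibroblasts runs from 589 to 775 CPM over both groups.

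Other genes were read from a list of 58, of which 53 were tested in endothelial barcodes. The list covers fatty acid uptake, storage and oxidation, and also lipoprotein receptors, transcription factors, retinoid and glucose transport and endothelial signalling (VEGF, Notch and apelin). By edgeR 0 were higher and 6 lower, against 0.174% and 10.3% of all genes, so this share was near the background, and the median log2 fold change was -0.021. At an unadjusted p below 0.05 the counts were 1 and 11, and DESeq2 called 1 higher and 7 lower. The 6 were Acadl, an enzyme of fatty acid oxidation in mitochondria, Cpt2, which readies fatty acids for it, Mgll, which splits monoglycerides, Acsl3, which activates fatty acids, Dgat2, which makes triglycerides, and Apln, a vascular peptide hormone. Acadl was at 80.7 and 94.1 CPM in controls and at 24.7, 23.4 and 22.7 CPM in disease, a log2 fold change of -1.95 (SE 0.11, adjusted p = 0.0012). Mgll was at 1064 and 1175 CPM in controls and at 527, 446 and 519 CPM in disease (-1.24, SE 0.12, adjusted p = 0.0035). The disease libraries lay far below the controls for both, and both calls held under all 19 alternatives. Acsl3 (-1.73), Dgat2 (-1.84), Apln (-1.16) and Cpt2 (-0.995) were at 19.5 CPM or less in every library, and their calls were less firm. The Cpt2 call was lost under 9 of the 19 alternatives (adjusted p up to 0.195), among them leaving out control 1, control 2, disease 4 or disease 5. The other losses came only on leaving out 1 library: Dgat2 without control 1, control 2, disease 3 or disease 5, Apln without control 1, control 2 or disease 5, and Acsl3 without control 1 or control 2, with adjusted p up to 0.113, 0.104 and 0.0691. Of the 5 most abundant list genes that did not pass, the caveola genes Cav1 (0.12, SE 0.10) and Cavin1 (0.02, SE 0.17), the receptors Flt1 (-0.15, SE 0.12) and Nrp1 (0.02, SE 0.12) and the mitochondrial carrier Ucp2 (0.41, SE 0.27) had log2 fold changes within 0.5 of 0.

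The genes most like 3 members in their pattern were ranked by Pearson correlation of log2 CPM over 33 sums of library and cell type, which share libraries and depth. Of these sums 7 are endothelial subtype gates whose barcodes are also in the endothelial sums, so endothelial barcodes weigh more. For Gpihbp1 they were Adgrf5 (0.991), Tie1, Cav1, Cyyr1 and Esam, which are endothelial genes. For Lpl they were Agap1 (0.975), Lrp5, Phactr1, Rab13 and Rsu1. For Fabp5 they were Bloc1s6 (0.951), Nosip, Cyb5r1, Ndrg1 and Sgk1. Over the other 26 sums, a choice made after seeing the data, the leading 5 still held 3 of these genes for Gpihbp1 (Adgrf5, Tie1 and Cav1), 4 for Lpl (all but Rsu1) and 3 for Fabp5 (Bloc1s6, Nosip and Cyb5r1).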

How the data were processed

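The authors deposited raw UMI counts per gene and barcode, the output of Cell Ranger 3.1.0 according to the file headers. The submitters' processing notes also name Seurat 3 and the builds mm10 and GRCh38. Barcodes were used if they held 500 or more UMIs, 200 or more genes and no more than 10% mitochondrial UMIs. Scrublet (scanpy 1.11.5) scored doublets, and the highest scores were removed up to 0.8% per 1000 cells (250 to 792 per library), because its automatic threshold marked 4 cells in control 2. Lineage gates asked for at least 2 UMIs of 2 markers, fewer than 2 of Cdh5 and Pecam1, and no other gate. Counts were summed per library and gate and tested in edgeR 4.0.16 (R 4.3.3; TMM, filterByExpr, quasi-likelihood F test, Benjamini-Hochberg over all genes tested, threshold 0.05), with the library as a block between cell types. CPM use plain totals. Standard errors are the log2 value over the square root of F. Counts of 6791930 to 11873116 UMIs per library stood behind the endothelial values. In the fits between cell types the median gene differed by 0.12 (macrophage), 0.26 (T cell), 0.38 (B cell), -0.12 (venous) and -0.15 (endocardial) on the log2 scale. Gene positions and GC content come from GENCODE vM21. Scripts were tested on simulated data. Alternatives covered DESeq2 1.42.0, scaling, filters, gates, doublets, thinning, GC trend and leaving out each library. Named were all 10 members, list genes that passed (up to 10), the 5 most abundant that did not, and the 5 genes most like Gpihbp1, Lpl and Fabp5. The members and lists were chosen with earlier results of these data known.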

Additional observations from a re-analysis of the deposited data

How the results depend on the processing

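Pparg, at 102 CPM or less, and, outside control 2, Tcf15, at 44.6 CPM or less, had the lowest levels of the members in endothelial barcodes. Behind these values stood 563 to 923 UMIs per library for Pparg and 157 to 529 for Tcf15 outside control 2. No paired analysis was made because the labels name no pairs of control and disease libraries, whose replicate numbers are serial library numbers. Blocks by library were used only between cell types. Dropping the block there (no replicate block) left 1 arterial and 4 venous calls among the members in place of 9 and 8. The number of genes called in endothelial barcodes, 1377, ran from 530 to 1305 when 1 library was left out (530 without control 2, 554 without disease 5, 888 without control 1), and that of the pathway list, 6, from 2 to 6. Members called in endothelial barcodes, 1 as reported, were 4 with DESeq2, 0 to 1 when 1 library was left out, and 0 with every gene with a count, the GC trend removed, at least 4 UMIs of Cdh5 and Pecam1, a Cdh5 UMI and no Ptprc UMI, the capillary gate only, all deposited barcodes, up to 25% mitochondrial UMIs, doublets kept, cells thinned to 1000 UMIs, or the same number of barcodes per library. Leaving out 1 library gave 0 to 1 members called over all cells (1, Tcf15, without control 1, and 1 with DESeq2), 0 to 2 in fibroblasts (2, Fabp4 and Lpl, without disease 4) and 0 to 2 in macrophages (2, Fabp5 and Fabp4, without disease 4). The subtype gates whose shares did not overlap between groups, among barcodes that met 1 gate only, were 2 (capillary lower, arterial higher), and 4 after thinning to 1000 UMIs (capillary and lymphatic lower, arterial and venous higher). Cd36 turned to -0.021 with the GC trend removed, and without 1 library ran from -0.0035 (disease 4) to 0.17 (disease 3). Pparg without 1 library ran from -0.56 (control 1) to 0.027 (control 2). The cause of these shifts was not tested. Doublets at the automatic threshold, subtype gates that may also meet the capillary gate, and another scaling outside endothelial barcodes were added after seeing the data.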
